A study of Schmidtea mediterranea with 4 samples.

Results

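*klf4l* (gene SMESG000031008.1) is the single gene described here, 1 of the 22192 genes in the count tables, and it was taken by its identifier from all 4 libraries. It was found in 232 of 48216 cells with 1200 UMIs (unique molecular identifiers, each standing for 1 captured RNA molecule). The libraries were made from *Schmidtea mediterranea*, a planarian flatworm, using mature animals of its sexual strain that had been starved for 1 week and tissue rich in reproductive organs. Anterior tissue gave 2 libraries (anterior 1 and 2) and posterior tissue gave 2 (posterior 1 and 2). No genotype, RNAi or drug treatment separated them. Each library pooled the tissue of many animals, and its cells were dissociated, stained with Hoechst and propidium iodide and sorted, so only cells that passed the sort were seen. The labels do not say whether the libraries of a region came from separate sets of animals, and the p-values below measure only the spread between libraries.

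*klf4l* encodes a Krüppel-like factor, a DNA-binding protein with zinc fingers. In planarians it marks the earliest germ cells, the germline stem cells of the testes and ovaries, and also the progenitors of yolk cells in the vitellaria, the glands that make yolk. Germ cells of the gonad lie next to somatic support cells. *LamA*, an extracellular matrix component, and *nrps*, a nonribosomal peptide synthetase, mark such support cells. A second *nrps* gene, written *nrps* (gut), is expressed in the intestine. These 3 genes were used as markers of cells other than germ cells. *klf4l* was the only germ cell gene whose identifier was known here, so a germ cell identity of the cells below could not be checked against further markers, and cell groups are given by cluster number.

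The smallest library had 6721 cells and 11513838 UMIs, and the largest had 19080 cells and 72094246 UMIs. Anterior cells were shallower, with a median of 1208 and 1218 UMIs per cell against 3297.5 and 2394.5 in posterior libraries, so shares of positive cells are also given after every cell was drawn down to 1000 UMIs. Cells under 1000 UMIs were then left out, 2577 of anterior 1, 4088 of anterior 2, 1614 of posterior 1 and 4147 of posterior 2. A set of 227 cell barcodes occurred in more than 1 library, in 455 cells, of which 4 were *klf4l*-positive, and no barcode was positive in more than 1 library.

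*klf4l* was rare in every library. Anterior 1 held 78 *klf4l* UMIs in 13 cells, anterior 2 held 234 in 54, posterior 1 held 312 in 53 and posterior 2 held 576 in 112. As CPM, with the UMIs of a library scaled to a total of 1000000, the level was 6.77 in anterior 1 (95% Poisson interval 5.35 to 8.45), 12.2 in anterior 2 (10.7 to 13.8), 5.62 in posterior 1 (5.02 to 6.28) and 7.99 in posterior 2 (7.35 to 8.67). In this order of levels posterior 1 and anterior 1 had overlapping intervals, as did anterior 1 and posterior 2, and anterior 2 stood above the other libraries. Intervals here and below cover counting error only, and they are too narrow for a gene whose UMIs lie in few cells.

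The share of *klf4l*-positive cells was 0.193% in anterior 1 (exact binomial 95% interval 0.103 to 0.331%), 0.520% in anterior 2 (0.391 to 0.678%), 0.441% in posterior 1 (0.330 to 0.576%) and 0.587% in posterior 2 (0.484 to 0.706%). Drawn to 1000 UMIs, the shares became 0.215%, 0.471%, 0.253% and 0.325% in the same order. Anterior 2 then held the highest share and anterior 1 the lowest, so the posterior libraries lay between both anterior ones. Per positive cell, the mean was 6.0, 4.33, 5.89 and 5.14 UMIs in the same order, and the median was 2 UMIs in 3 libraries and 1 in posterior 2.

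**Figure D1:**
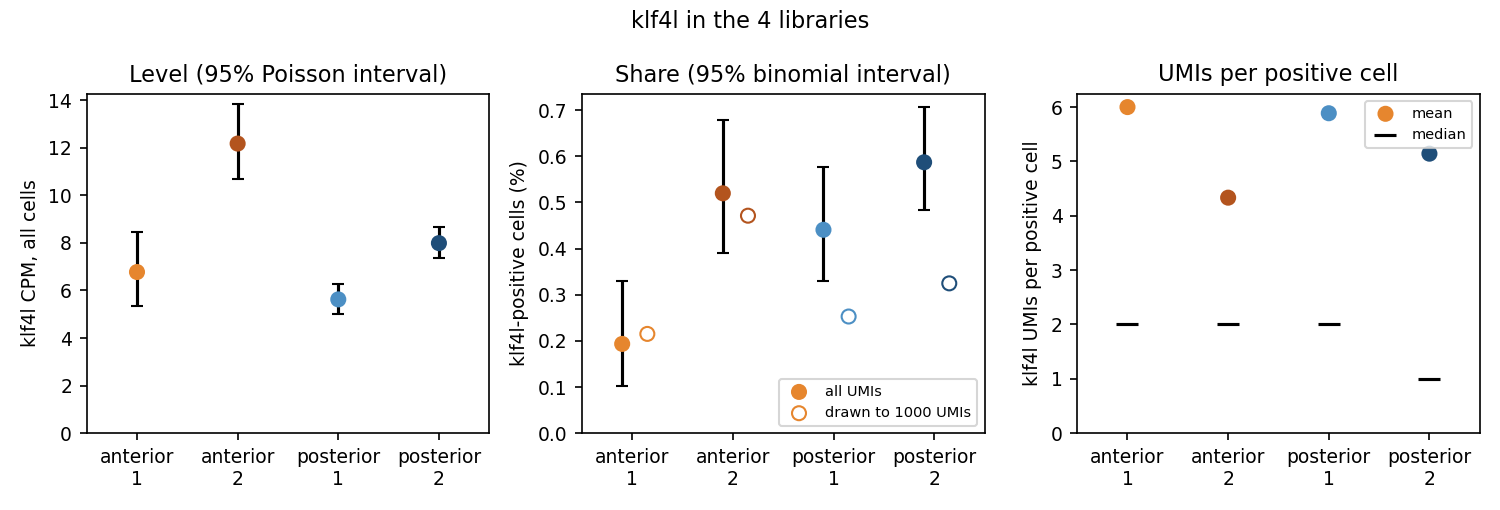
*klf4l* in each library: CPM over all cells with 95% Poisson intervals (left), percent of positive cells with exact binomial 95% intervals and the same share drawn to 1000 UMIs per cell (middle), and mean and median UMIs per positive cell (right). Anterior 2 has the highest CPM, 12.2, and the highest share at matched depth, 0.471%.

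The first comparison asked whether *klf4l* differed between anterior and posterior tissue. Over all cells the level was 9.47 ± 3.82 CPM in anterior and 6.81 ± 1.67 CPM in posterior libraries (mean ± SD, n = 2 each), and the ranges overlapped. On UMIs summed per library the log2 difference, posterior minus anterior, was −0.46 (SE 0.39, 95% interval −1.40 to 0.49), and it did not pass the threshold (adjusted p = 0.990, edgeR quasi-likelihood test with Benjamini-Hochberg adjustment over 18716 genes). Of those genes 31 passed, which is 0.166%. The interval leaves room for a difference in either direction. The sign rested on anterior 2 and on the deepest cells: the log2 difference was 0.060 without anterior 2 and 0.035 without the 5% of cells with the most UMIs in each library. Those deepest cells held 61.5% of the *klf4l* UMIs of anterior 1, 36.3% of anterior 2, 9.62% of posterior 1 and 32.5% of posterior 2, against 20.2 to 22.0% of all UMIs.

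At 1000 UMIs per cell the positive share was 0.343 ± 0.181% in anterior and 0.289 ± 0.0508% in posterior libraries (mean ± SD, n = 2 each). The difference of −0.0545 percentage points was within the spread (two-sided exact permutation test, p = 1), and it was 0.0736 without anterior 2. The mean number of UMIs per positive cell was 5.17 ± 1.18 in anterior and 5.51 ± 0.526 in posterior libraries, a difference of 0.348 UMIs (exact permutation test, p = 1). That difference was −0.485 without anterior 2, −0.0238 without posterior 1 and −0.551 at 1000 UMIs per cell. With 2 libraries against 2 no permutation p below 0.333 was possible.

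The number of UMIs per positive cell was uneven. Of the 232 positive cells, 115 held 1 *klf4l* UMI and 23 held 2. A further 94 cells held 3 or more, and these carried 1039 of the 1200 UMIs, or 86.6%. Within them, 48 cells with 10 or more carried 798 UMIs, or 66.5%. The highest cell held 28 UMIs in anterior 1, 20 in anterior 2, 25 in posterior 1 and 45 in posterior 2. All 4 libraries thus held some cells with many *klf4l* molecules beside cells with 1. The cells with 1 UMI had a median depth of 3259 UMIs and those with 3 or more a median of 6642.5, against 1934 in *klf4l*-negative cells.

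**Figure D2:**
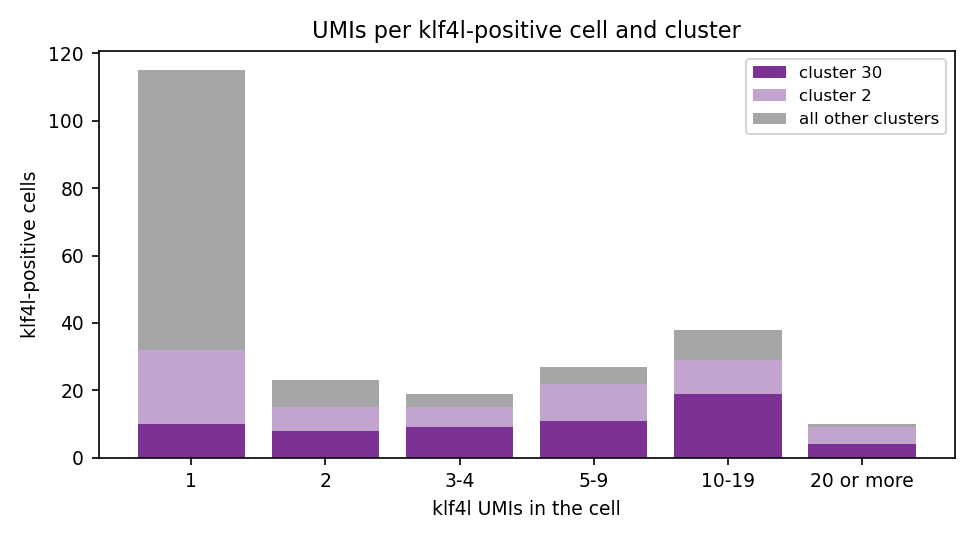
Number of *klf4l*-positive cells (vertical axis) by the *klf4l* UMIs they held (horizontal axis), all 4 libraries together, coloured by cluster. Of the 115 cells with 1 UMI, 83 lay outside clusters 30 and 2, and of the 10 cells with 20 or more, 1 did.

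Detection followed the depth of the cell. Over all libraries the positive share was 0.169% in cells of 500 to 999 UMIs, 0.287% from 1000 to 1999, 0.447% from 2000 to 3999, 0.712% from 4000 to 7999 and 1.59% at 8000 or more. The CPM, which takes depth into account, was 3.80, 3.90, 4.45, 6.88 and 11.8 in the same bins. So deep cells held more *klf4l* per UMI as well as more often a *klf4l* UMI. By library, the CPM in cells of 8000 or more UMIs was 35.2 in anterior 1, 30.5 in anterior 2, 8.63 in posterior 1 and 12.9 in posterior 2. The value of anterior 1 came from 1 positive cell with 28 UMIs among 63 cells. In posterior 1 the highest CPM was not in this bin but in cells of 500 to 999 UMIs, at 10.3, from 12 UMIs in 3 cells. What lies behind this pattern was not tested.

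**Figure D3:**
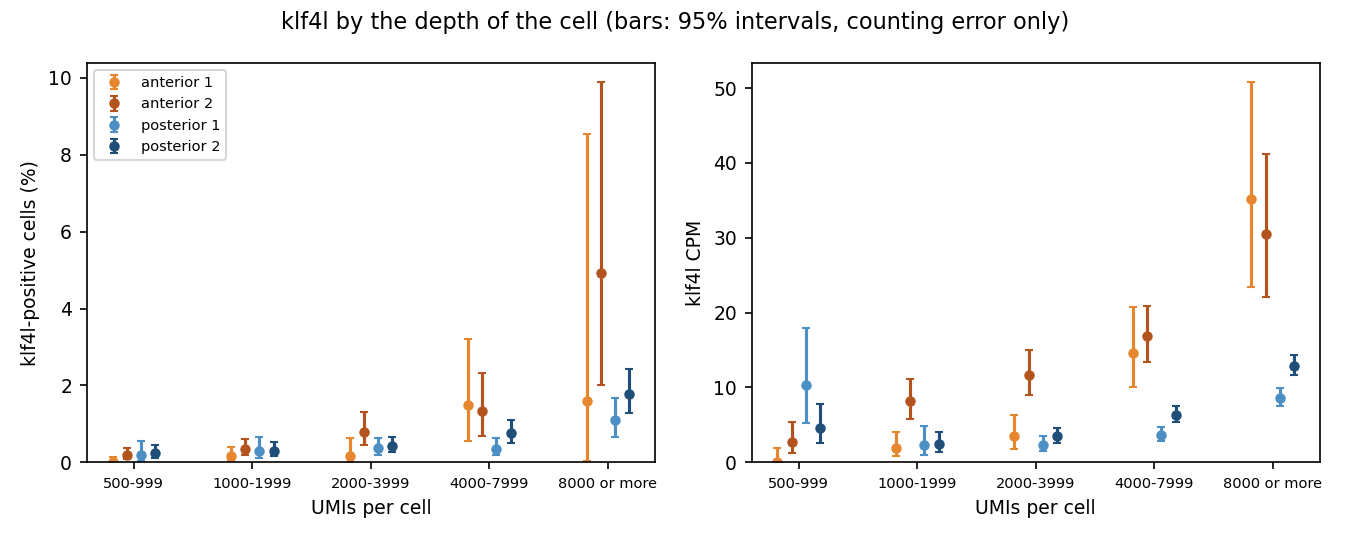
Percent of *klf4l*-positive cells (left) and *klf4l* CPM (right) by the UMIs of the cell, for each library, with exact 95% intervals for counting error. In cells of 8000 or more UMIs the CPM is 35.2 and 30.5 in the anterior and 8.63 and 12.9 in the posterior libraries.

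The cells were grouped by Leiden clustering, which joins cells of similar expression, with *klf4l*, *LamA* and both *nrps* genes left out of the clustering. It gave 55 clusters, 54 of them with at least 50 cells. *klf4l* UMIs were present in 34 clusters and 21 held none. Only 2 clusters were needed to reach 50% of all *klf4l* UMIs and 8 to reach 90%. For *LamA* these numbers were 4 and 21, for *nrps* 3 and 18, and for *nrps* (gut) 4 and 19.

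Cluster 30, with 402 cells or 0.834% of all cells, held 497 of the 1200 *klf4l* UMIs, or 41.4% (exact binomial 95% interval 38.6 to 44.3%). Of its cells 61 were positive, or 15.2% (11.8 to 19.1%), and its level was 227 CPM (207 to 248). When the cluster of highest *klf4l* CPM was chosen from 3 libraries, it was cluster 30 each time, and it also ranked first in each library left out, among clusters with at least 10 cells there. There its CPM was 121 in anterior 1, 177 in anterior 2, 319 in posterior 1 and 213 in posterior 2, against 5.95, 8.96, 2.87 and 4.35 CPM in the rest of those libraries. The cluster was high in all 4 libraries, although anterior 1 gave only 18 of its cells and 10 of its *klf4l* UMIs. Clustering at resolutions 0.5 and 2 placed the same share, 41.4%, in the leading cluster, and clustering with all genes placed 43.8% there.

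Cluster 2 was larger, with 3112 cells, and held 392 *klf4l* UMIs, or 32.7%. It also had 61 positive cells, which was 1.96% of its cells (1.50 to 2.51%), at 26.1 CPM (23.6 to 28.8). Cluster 30 therefore had the higher share of positive cells, and at 1000 UMIs per cell the shares were 11.0% and 1.58%. The order of the UMIs per positive cell depended on depth. The mean was 8.15 UMIs in cluster 30 and 6.43 in cluster 2 as counted, but 1.85 and 2.34 at 1000 UMIs per cell. In the anterior libraries the mean as counted was also lower in cluster 30, at 2.5 against 10.6 UMIs in anterior 1 and 5.42 against 5.79 in anterior 2. Clusters 30 and 2 together held 889 UMIs, or 74.1%, and 122 of the 232 positive cells, or 52.6%.

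The share lying in these 2 clusters was higher for cells with many *klf4l* UMIs than for cells with 1. Of the 94 cells with 3 or more UMIs, 75 lay there (79.8%, exact binomial 95% interval 70.2 to 87.4%), against 32 of the 115 cells with 1 UMI (27.8%, 19.9 to 37.0%). Positive cells were also deeper than negative cells of the same cluster, with a median of 8072 against 2039 UMIs in cluster 30 and 4224 against 2422 in cluster 2. These shares describe the clusters and were not tested, since cells of a library are not replicates. The 2 clusters were picked for their *klf4l* CPM, and cells with 3 or more UMIs carried 86.6% of the *klf4l* UMIs. That more of such cells lay there thus follows in part from the choice and gives no separate support.

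Next in CPM came clusters 11 and 20. Cluster 11 had 25.7 CPM from only 2 of its 1412 cells. The first, of anterior 2, held 14 *klf4l* UMIs among 6790 UMIs, and the second, of posterior 2, held 43 among 20100, in a cluster whose median cell had 1066.5. None of *LamA*, *nrps* and *nrps* (gut) was detected in either cell. Cluster 20 had 13.4 CPM from 38 UMIs in 15 of its 828 cells. This cluster also held *LamA* at 191 CPM and *nrps* at 34.8 CPM, the second highest level of *nrps* among the clusters. Over libraries the CPM ran from 121 to 319 in cluster 30, from 19.3 to 70.4 in cluster 2, from 0 to 56.5 in cluster 11 and from 7.03 to 22.2 in cluster 20. Cluster 30 thus lay above the others in every library, and the CPM ranges of clusters 2, 11 and 20 overlapped. Within libraries, the CPM of cluster 2 was above that of cluster 20 except in posterior 1, and above that of cluster 11 except in posterior 2. The share of positive cells ran from 1.23 to 2.24% in cluster 2, from 0 to 0.289% in cluster 11 and from 0.870 to 2.26% in cluster 20.

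Outside clusters 30 and 2, 110 of 44702 cells were positive (0.246%, 0.202 to 0.297%), at 2.20 CPM and a median depth of 1918 UMIs. By library the level of these cells was 1.40 CPM in anterior 1, 3.59 in anterior 2, 1.48 in posterior 1 and 2.56 in posterior 2. For a background, cluster 28, the cluster with the most *nrps* (gut) at 619 CPM, held 1 *klf4l*-positive cell of 518 (0.193%, 0.00489 to 1.07%) at a median depth of 2887 UMIs. With 1 positive cell this interval is wide, and it holds the share of 0.246% outside the leading clusters, so this comparison does not separate that share from background. The largest of the other clusters were uneven in level. Cluster 0 had 0.976 CPM (0.317 to 2.28) and cluster 1 had 0.206 (0.0425 to 0.603). Cluster 3 had 0.627 (0.171 to 1.60), and cluster 4 had 4.48 (3.14 to 6.21) from 36 UMIs in 6 cells. By CPM, clusters 1 and 3 thus lay below, and cluster 4 above, the 2.20 CPM of all cells outside clusters 30 and 2. Cluster 4 lay above through 2 cells with 10 or more UMIs, beside 4 cells with 1 UMI. Its share of positive cells was 0.215% (0.0791 to 0.468%), not above the 0.246% outside clusters 30 and 2. Cluster 20, counted among these cells, had 1.81% positive cells (1.02 to 2.97%), 9 of its 15 with 1 UMI. Free RNA was not measured here.

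The 19 cells outside clusters 30 and 2 with 3 or more UMIs were spread over 13 clusters and held 212 *klf4l* UMIs. Of these cells 11 had more than 3 times the median depth of their cluster, and no share of other cells above that bound is given here. Their median depth was 6228 UMIs, against 6642.5 in all 94 cells with 3 or more. *LamA* was detected in 0 of the 19 and *nrps* (gut) in 3. Whether they were doublets was not tested, and no doublets were removed.

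Region was then compared within the leading clusters, so that the number of cells of other clusters did not enter the sums. In cluster 30 the anterior level was 121 and 177 CPM and the posterior level 319 and 213 CPM, so both posterior values lay above both anterior ones. The log2 difference, posterior minus anterior, was 0.75 (SE 0.30, 95% interval 0.07 to 1.44), which did not pass (adjusted p = 1.00, edgeR, 6738 genes, unadjusted value 0.0348). No gene passed in this cluster, 0% of those tested, and 148 genes (2.2%) had an unadjusted p under 0.05. DESeq2 also called 0. Without posterior 2, which leaves a lone posterior library, the log2 difference was 1.05. At 1000 UMIs per cell, the share of positive cells in cluster 30 was 12.6%, 8.50%, 12.1% and 11.8% in anterior 1, anterior 2, posterior 1 and posterior 2, and the groups overlapped. The median cell of the cluster had 5009, 1282, 2235 and 5853.5 UMIs in the same order.

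Cluster 2 showed the opposite order, a comparison added after its values were seen. Its level was 70.4 CPM in anterior 1 and 45.5 in anterior 2, against 19.4 in posterior 1 and 19.3 in posterior 2. The anterior values rested on few cells, 53 UMIs in 5 cells of anterior 1, of which 28 in 1 cell, and 110 UMIs in 19 cells of anterior 2. The posterior libraries had 83 UMIs in 16 cells and 146 UMIs in 21 cells. The log2 difference was −1.49 (SE 0.26, 95% interval −2.05 to −0.94) with an adjusted p of 0.0900 (edgeR, 11070 genes, of which 8, or 0.0723%, passed). With 1 library left out it ran from −1.86 (without anterior 2) to −1.18 (without anterior 1). Among fits on all 4 libraries, it passed with no filter on low counts and with the replicate number as a block. It missed when scaled by library sizes alone (−1.52, adjusted p = 0.272, edgeR). It also missed in cells of at least 1000 UMIs (−1.73, adjusted p = 0.0523, edgeR). Without the 5% of cells with the most UMIs it was −0.51, with an adjusted p of 1.00 (edgeR). At 1000 UMIs per cell the positive shares were 1.71% and 2.25% in the anterior and 1.48% and 1.17% in the posterior libraries. Depth moved with region in this cluster, with a median of 1155 and 1377 UMIs per cell in the anterior and 3784 and 5519 in the posterior libraries, and its part in the result was not tested.

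The difference between these 2 contrasts was itself tested, also after the values were seen, and the adjustment over genes does not cover that choice. The region difference of *klf4l* was higher in cluster 30 than in cluster 2 by 2.10 on the log2 scale (SE 0.34, 95% interval 1.39 to 2.80, adjusted p = 0.0101, edgeR interaction with a term for the library). In that test 4 of 9464 genes passed, 0.0423%. With no library term the value was 2.21 with an adjusted p of 0.508, and without the deepest 5% of cells it was 1.25 with an adjusted p of 0.551 (edgeR). The share of a library's *klf4l* UMIs lying in cluster 30 was 12.8% and 27.8% in the anterior and 49.4% and 46.5% in the posterior libraries. In cluster 2 the shares were 67.9% and 47.0%, and 26.6% and 25.3%. The ranges of the regions did not overlap for either cluster. With 2 libraries against 2 the smallest exact permutation p is 0.333, and these shares were not tested. Both are parts of 1 total per library, so a higher share in 1 cluster leaves less for the other. They also vary with cluster size, as anterior 1 gave 18 cells of cluster 30 and anterior 2 gave 128.

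Finer clustering split cluster 2 into parts with different orders. At resolution 2, the deeper part (1505 cells, median 7106 UMIs) had 148 CPM in anterior 1, 41.5 in anterior 2, 13.1 in posterior 1 and 17.4 in posterior 2. The shallower part (1682 cells, median 997.5 UMIs) had 4.67, 54.8, 44.4 and 4.52 CPM in the same order. The anterior libraries were above both posterior ones in the deeper part only.

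**Figure D4:**
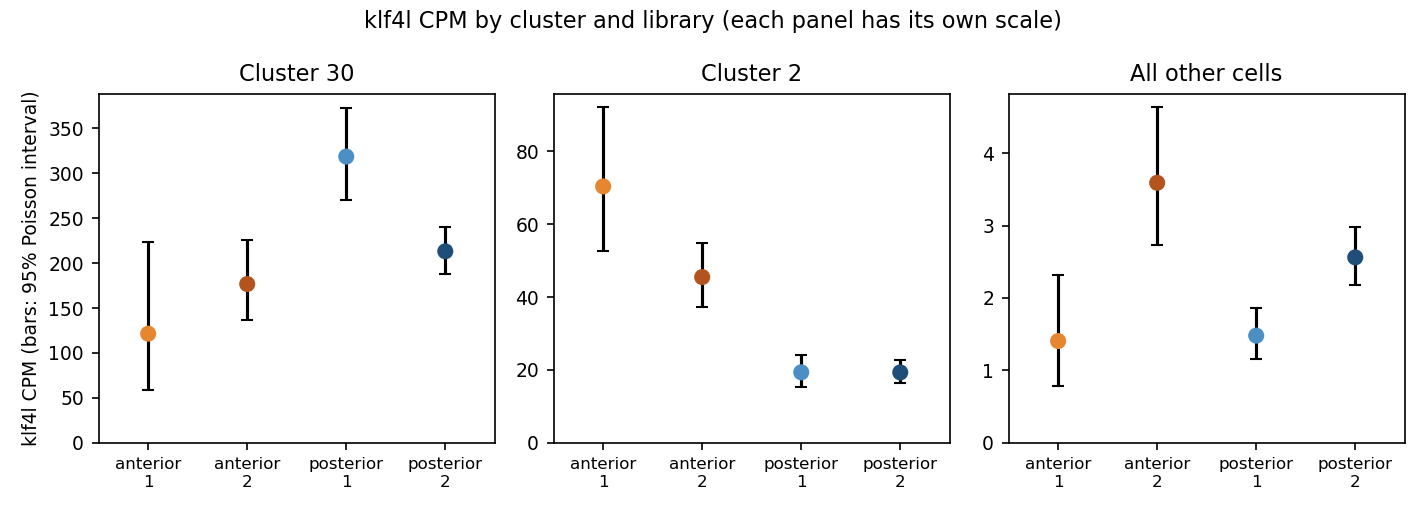
*klf4l* CPM by library in cluster 30, cluster 2 and all other cells, each panel with its own vertical scale, with 95% Poisson intervals for counting error. Both posterior libraries lie above both anterior ones in cluster 30 (319 and 213 against 121 and 177 CPM), and below them in cluster 2 (19.4 and 19.3 against 70.4 and 45.5 CPM).

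Co-detection with the support cell genes asked whether *klf4l* and these genes were found in the same cells. No cell held both *klf4l* and *nrps*. This was 0 of 162 *nrps*-positive cells, which allows a share of up to 1.85%, and 0 of 232 *klf4l*-positive cells, which allows up to 1.29%. *nrps* was itself in 0.336% of all cells, and joint shares below these limits were not detectable at this depth.

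*LamA* and *klf4l* were found together in 9 cells, 0 in anterior 1, 2 in anterior 2, 2 in posterior 1 and 5 in posterior 2. Of the 1658 *LamA*-positive cells 0.543% were *klf4l*-positive (0.249 to 1.03%), against 0.479% of the *LamA*-negative cells (0.418 to 0.546%). The *LamA*-positive cells were deeper, with a median of 3525 against 1907 UMIs. At 1000 UMIs per cell, with both genes read from the same draw, the mean share over libraries was 0.120% in *LamA*-positive and 0.319% in *LamA*-negative cells. The difference was −0.198 ± 0.0585 percentage points (mean ± SD, n = 4 libraries). It was below 0 in 4 of 4 libraries, in anterior 1 through a count of 0 joint cells. The exact sign-flip permutation test gave p = 0.125, also after Benjamini-Hochberg adjustment over 3 such tests, and this is the smallest p that 4 libraries allow. At 2000 UMIs per cell the difference was −0.169 with p = 0.5 (exact permutation test), and it was 0.323 in anterior 2. Without drawing down, it was 0.0208 percentage points. Among cells of 4000 to 7999 UMIs, 3 of 343 *LamA*-positive cells were *klf4l*-positive (0.875%) and 0.705% of the negative cells. In the other depth bins the share was lower in the *LamA*-positive cells. It was 0% against 0.172% at 500 to 999 UMIs and 0% against 0.294% at 1000 to 1999. It was 0.276% against 0.453% at 2000 to 3999 and 1.21% against 1.63% at 8000 or more. The sign thus changed with depth and library. *LamA* was also spread widely, with UMIs in 51 clusters. Cluster 52, the highest in both *LamA* and *nrps*, held 7.64% of the *LamA* UMIs. Cluster 27 was next, at 455 CPM of *LamA* but 0.986 CPM of *nrps*. *LamA*-positive cells therefore cannot be taken as gonadal support cells alone.

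For *nrps* the same difference was −0.317 ± 0.113 percentage points, which is only the share in *nrps*-negative cells with its sign turned. With 0 joint cells in every library its direction was fixed by the counts, and no test is read from it. For *nrps* (gut) the difference was −0.161 ± 0.0523 percentage points, below 0 in 4 of 4 libraries (exact permutation test, p = 0.125), in anterior 1 again through a count of 0 joint cells. *klf4l* and *nrps* (gut) were found together in 26 cells, 0 in anterior 1, 7 in anterior 2, 7 in posterior 1 and 12 in posterior 2. This was 0.713% of the *nrps* (gut)-positive and 0.462% of the negative cells before drawing down, at median depths of 5078 and 1811.5 UMIs. The sign for *nrps* (gut) depended on depth, with a difference of 0.00300 percentage points at 500 UMIs and 0.238 without drawing down. At 500 UMIs only posterior 1 was above 0, at 0.347. The difference there was −0.0957 in anterior 1, −0.154 in anterior 2 and −0.0852 in posterior 2. Among cells of 8000 or more UMIs, 21 of 1083 *nrps* (gut)-positive cells were *klf4l*-positive (1.94%) and 1.47% of the negative cells. The positive cells had the lower share at 4000 to 7999 UMIs (0.180% against 0.797%). The same held at 2000 to 3999 (0.266% against 0.460%) and at 1000 to 1999 (0% against 0.297%). At 500 to 999 UMIs it was 0.365%, from 1 joint cell, against 0.165%.

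**Figure D5:**
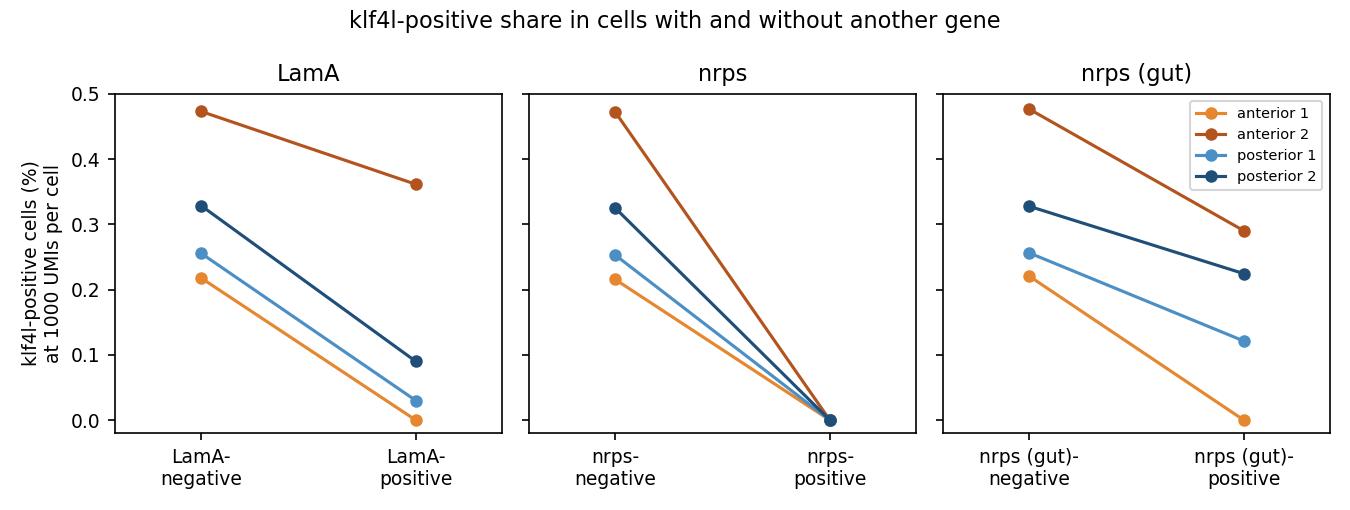
Percent of *klf4l*-positive cells, with each cell drawn to 1000 UMIs, among cells negative and positive for *LamA*, *nrps* and *nrps* (gut), with 1 line per library. The points at 0 stand for counts of 0 joint cells, in all libraries for *nrps* and in anterior 1 for *LamA* and *nrps* (gut), and fix the direction of those lines.

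*klf4l* was also counted in the clusters with the highest levels of these genes. Cluster 52, with the highest CPM of both *LamA* (3014 CPM) and *nrps* (466 CPM), held *klf4l* in 0 of 55 cells, which allows a share of up to 5.45% of cells with a UMI. At a median of 1249 UMIs per cell this count does not separate the cluster from the share of 0.481% over all cells. Cluster 28 held 1 *klf4l* UMI, in posterior 2. In cluster 30 itself *LamA* stood at 19.6 CPM and *nrps* at 4.11 CPM. There *LamA* was found in 4.92% of *klf4l*-positive cells (3 of 61) and 5.57% of *klf4l*-negative cells, from 22 *LamA*-positive cells. *nrps* was found in 0% and 2.05%, from 7 *nrps*-positive cells, too few to tell these shares apart. *nrps* (gut) was found in 21.3% of the positive and 10.6% of the negative cells of cluster 30, and the positive cells were the deeper ones.

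The genes whose pattern was most like that of *klf4l* were ranked by the Pearson correlation of log2(CPM + 1) over the 54 clusters of at least 50 cells, among 15866 genes with at least 200 UMIs. The points share libraries and differ in depth, and the correlation is a description. The highest were SMESG000074782.1 and SMESG000055011.1, both at r = 0.66, for which no gene name was at hand. No gene reached 0.7. *nrps* stood at 0.27, *nrps* (gut) at 0.19 and *LamA* at 0.00.

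Both of these genes had their highest CPM in cluster 30. They were picked for likeness to *klf4l*, which was itself highest there, so this peak and the co-detection below give no separate support. SMESG000055011.1 had 168 CPM in cluster 30 and 1.33 CPM in cluster 2, so it was nearly absent from the second cluster of *klf4l*. Within cluster 30 it was found in 62.3% of *klf4l*-positive and 37.2% of *klf4l*-negative cells, and the part of the greater depth of the positive cells was not tested. Of the cells with 3 or more *klf4l* UMIs, 28 of 43 in cluster 30 held it, 5 of 32 in cluster 2 and 5 of the 19 elsewhere. Among all cells outside the 2 clusters 0.280% did. The 19 cells were deeper, with a median of 6228 UMIs against 1918 in all cells outside, and the part of depth was not tested. SMESG000074782.1 had 33.8 CPM in cluster 30 and was found there in 8.20% of *klf4l*-positive and 15.0% of *klf4l*-negative cells. Over all cells it was found in 3.02% of *klf4l*-positive and 0.373% of *klf4l*-negative cells.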

How the data were processed

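The authors deposited raw UMI counts for every gene in every cell, 1 table a library. Cell Ranger 5.0.0 aligned the reads of the 10x 3′ libraries to the sexual genome, filtered barcodes and counted UMIs. The counts were neither normalized nor pooled, and every cell had at least 500 UMIs. Regions and replicate numbers came from the sample labels. The identifier of *klf4l* came from the transcript number in the study's gene list. No genome was used here, so no position or sequence is given, and no doublet caller was run.

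Shares at 1000 UMIs are expected values of draws without replacement. Cells were scaled to 10000 counts, and 3000 variable genes, 50 principal components and 20 neighbours entered Leiden clustering at resolution 1 (scanpy 1.11.5, leidenalg 0.10.2). UMIs summed per library were tested with edgeR 4.0.16 (TMM, filterByExpr, quasi-likelihood, threshold 0.05 on adjusted p), which was tested on simulated data. DESeq2 1.42.0, other scalings, filters, depths and clusterings, the replicate number as a block, and leaving out each library were alternatives. Binomial and Poisson intervals are exact at 95%, and limits for a count of 0 are set at 3 counts. The 95% intervals of log2 differences are approximate, a t quantile times an SE derived from the test statistic. Named genes are *klf4l*, the other genes the study gives by number, and the 2 most alike genes. The gene and the lists were chosen with earlier results of these data known.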

Additional observations from a re-analysis of the deposited data

Results flagged for a closer look

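The region difference of *klf4l* differed between the leading clusters. Posterior minus anterior, it was higher in cluster 30 than in cluster 2 by 2.10 on the log2 scale (SE 0.34, adjusted p = 0.0101, edgeR interaction over 9464 genes). Both posterior libraries lay above both anterior ones in cluster 30, and below both in cluster 2. The comparison was added after the values were seen, and the adjustment over genes does not cover that choice. It missed the threshold without the deepest 5% of cells (1.25) and without the library term (2.21). The cluster 2 level of anterior 1 rested on 53 UMIs in 5 cells, of which 28 in 1 cell. At resolution 2 the order of cluster 2 held in its deeper part only.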

How the results depend on the processing

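Over all cells the log2 region difference of *klf4l* passed under none of 10 alternatives. It turned to 0.035 without the deepest 5% of cells, and it ran from −0.80 to 0.060 with each library left out, positive without anterior 2. The region difference in the positive share turned to 0.00185 percentage points at 500 UMIs, 0.157 with no drawing down and 0.0736 without anterior 2 (range −0.183 to 0.0736). The difference in UMIs per positive cell turned to −0.551 at 1000 UMIs and ran from −0.485 to 1.18 with each library left out, below 0 without anterior 2 (−0.485) and without posterior 1 (−0.0238). With no drawing down the co-detection difference was 0.0208 for *LamA* and 0.238 for *nrps* (gut). At 500 UMIs that of *nrps* (gut) was 0.00300, above 0 in posterior 1 only. The share of *klf4l* UMIs in cluster 30 ran from 36.7% without posterior 2 to 44.7% without anterior 2. The log2 difference in cluster 30 stayed above 0 in 13 alternatives (0.37 to 1.14, the ends with 1 library left out). It passed in none of those on all 4 libraries, and it was 1.05 without posterior 2.

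Genes called over all cells numbered 31 (8 higher in posterior, 23 in anterior). They were 562 with DESeq2 (127 and 435), 9 with library sizes (5 and 4), 73 with no filter, 20 in cells of at least 1000 UMIs, 140 without the deepest cells and 0 to 589 with 1 library left out. In cluster 30 they were 46 with no filter, 1 without the deepest cells and 0 to 132 with 1 library left out. In cluster 2, among fits on all 4 libraries, the difference passed with no filter (−1.44, adjusted p = 2.1e-05 by edgeR). It missed with library sizes (−1.52, adjusted p = 0.272, edgeR) and without the deepest cells (−0.51). It also missed in cells of at least 1000 UMIs (−1.73, adjusted p = 0.0523, edgeR). With each library left out it ran from −1.86 to −1.18. The difference between the clusters was 2.21 without the library term, 1.25 without the deepest cells and 1.74 to 3.05 with 1 library left out. The causes of these changes were not tested. A lone library in a region was assumed to vary like the others.

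Equal replicate numbers were not shown to pair the libraries (correlation of deviations 0.16 over all cells, −0.01 in cluster 30, only 2 pairs). With the replicate number as a block, the log2 difference was −0.41 over all cells, 0.64 in cluster 30 and −1.47 in cluster 2, which then passed (adjusted p = 3.5e-06, edgeR), and 84 genes passed over all cells and 1 in cluster 30.

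*klf4l* was seen in 232 cells, 115 of them with 1 UMI, so depth and the few cells with many UMIs limit each comparison of regions.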
